A study of Mus musculus with 12 samples.

Results

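The proteasome genes were followed through bulk RNA-seq of sorted mouse regulatory T cells (Tregs), CD4 T cells that restrain immune responses and depend on the transcription factor Foxp3. Members were taken by symbol: every row of the deposited gene count table named Psma, Psmb, Psmc, Psmd, Psme, Psmf or Psmg with a number, except the immunoproteasome genes Psmb8, Psmb9 and Psmb10. This gave 45 of the 24421 rows, of which 43 passed the filter on low counts that left 12461 genes for testing. The 12 libraries form 4 groups of 3, from WT or KO mice, where KO stands for deletion of CD25 (gene Il2ra), the high-affinity chain of the interleukin-2 receptor. All mice carried the R26tomato+/+ reporter and the Foxp3eGFPERT2+/+ allele, and all received tamoxifen at 2 mg/kg by intraperitoneal injection for 5 days. Organs were taken 10 days later, and each replicate pooled spleen and lymph nodes of 2 to 3 mice, so a library is a pool and not 1 animal. The sort took CD4+ cells with the GFP and tomato reporters, split into central Tregs (cTreg, CD62L high) and effector Tregs (eTreg, CD62L low). KO cells were also gated as CD25 low, so the KO groups are cells selected for the loss. Both CD25FL/FL and CD25WT/WT appear in the labels, but their genotype field gives CD25FL/FL to the libraries titled WT and CD25WT/WT to those titled KO. The titles and the cell type field are followed here, and the age of the mice is not given in the sources used here.

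Levels are given as counts per 1000000 counts (CPM), scaled by the trimmed mean of M-values (TMM) so that libraries can be compared. The targeted gene checks the titles: Il2ra stood at 576, 523 and 580 CPM in WT cTreg and 122, 112 and 113 CPM in KO cTreg. The eTreg values were 464, 562 and 542 for WT and 125, 116 and 132 for KO, so every library titled KO lay below every library titled WT. Foxp3 ranged from 158 to 407 CPM over the 12 libraries. Total counts ranged from 14567313 to 19121577 per library, and the members took 36573 to 59426 of them. The ribosomal precursor Rn45s took 18.1% to 24.4% of counts in cTreg and 3.19% to 4.34% in eTreg, and TMM scaling compares the remaining genes. The summed level of 6 B cell markers was 11.8 to 14.0 CPM in WT cTreg, 25.5 to 38.4 in KO cTreg, 27.0 to 38.5 in WT eTreg and 50.4 to 64.6 in KO eTreg. In WT cTreg 2 of these 6 markers were at 0 in all 3 libraries, in KO cTreg 1 was, and in eTreg none was. Plasma cell, CD8 T cell, NK, myeloid, dendritic and erythroid lists each summed to at most 14.5 CPM in any library, and 3 T cell markers to 1441 to 1956 CPM. The 5 stromal markers summed to 203 to 279 CPM in cTreg and 111 to 130 CPM in eTreg, nearly all of it Pecam1, which T cells also express. The list of 30 cell cycle genes summed to 810 to 1007 CPM in WT cTreg, 1071 to 1791 in KO cTreg, 699 to 1047 in WT eTreg and 735 to 1221 in KO eTreg. The part of these lists in the results below was not tested.

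The proteasome is the barrel-shaped protease that degrades proteins tagged with ubiquitin in the cytosol and nucleus. Its core particle stacks rings of alpha subunits, which form the gated entrance, around rings of beta subunits, of which Psmb5, Psmb6 and Psmb7 carry the cutting sites. A regulatory particle binds the ends of the core: its base holds the Psmc ATPases, which unfold substrates, and ubiquitin-binding subunits, and its lid removes ubiquitin. Alternative caps (Psme1 with Psme2, Psme3, or Psme4) open the core without this particle, and dedicated chaperones (the Psmg family on the core; Psmd5, Psmd9 and Psmd10 on the base) assemble the parts. Assembled particles contain their subunits in fixed proportions. Immune cells can replace the cutting subunits by the immunoproteasome forms, which change the peptides produced for MHC class I, and the transcription factor NRF1 (Nfe2l1) raises subunit genes when proteasome activity falls short.

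All constitutive subunits were expressed in all 4 groups. Per kilobase of exon, levels averaged over the 12 libraries ran from 194 CPM per kilobase for Psme1, an activator subunit induced by interferon, to 5.79 for Psmd9, a base chaperone, a 33.5-fold range. Within the 7 tested alpha subunits Psma7 was highest at 72.9 CPM per kilobase and Psma3 lowest at 20.9, and within the 7 tested beta subunits Psmb3 stood at 67.7 and Psmb1 at 31.2. ATPases lay between 26.8 for Psmc6 and 44.1 for Psmc3. In the base, the large scaffold subunit Psmd2 stood at 49.6 CPM per kilobase and its partner Psmd1 at 27.0, and in the lid, the deubiquitinase Psmd14 at 43 and the scaffold subunit Psmd12 at 20.0. Chaperones were the low group, from Psmd9 to 14.8 CPM per kilobase for Psmg4, with a median of 11.1 against 50.4 for alpha and 51.7 for beta subunits. Psmf1, a protein inhibitor of the core, stood at 9.78. These orders depend on the exon lengths used: with the comprehensive in place of the basic transcript set, Psme1 stood at 97.6 CPM per kilobase and the lowest chaperone was Psmg3 at 1.90.

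The other two members are tissue forms that did not enter the tests. Psmb11, the beta subunit of thymic epithelium, had 0 counts in all 12 libraries, where 3 counts would be 0.138 to 0.241 CPM. Psma8, the germ cell alternative to Psma7, had 0 counts in the 6 cTreg libraries, 0, 4 and 4 counts in WT eTreg and 2, 1 and 2 counts in KO eTreg.

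**Figure D1:**
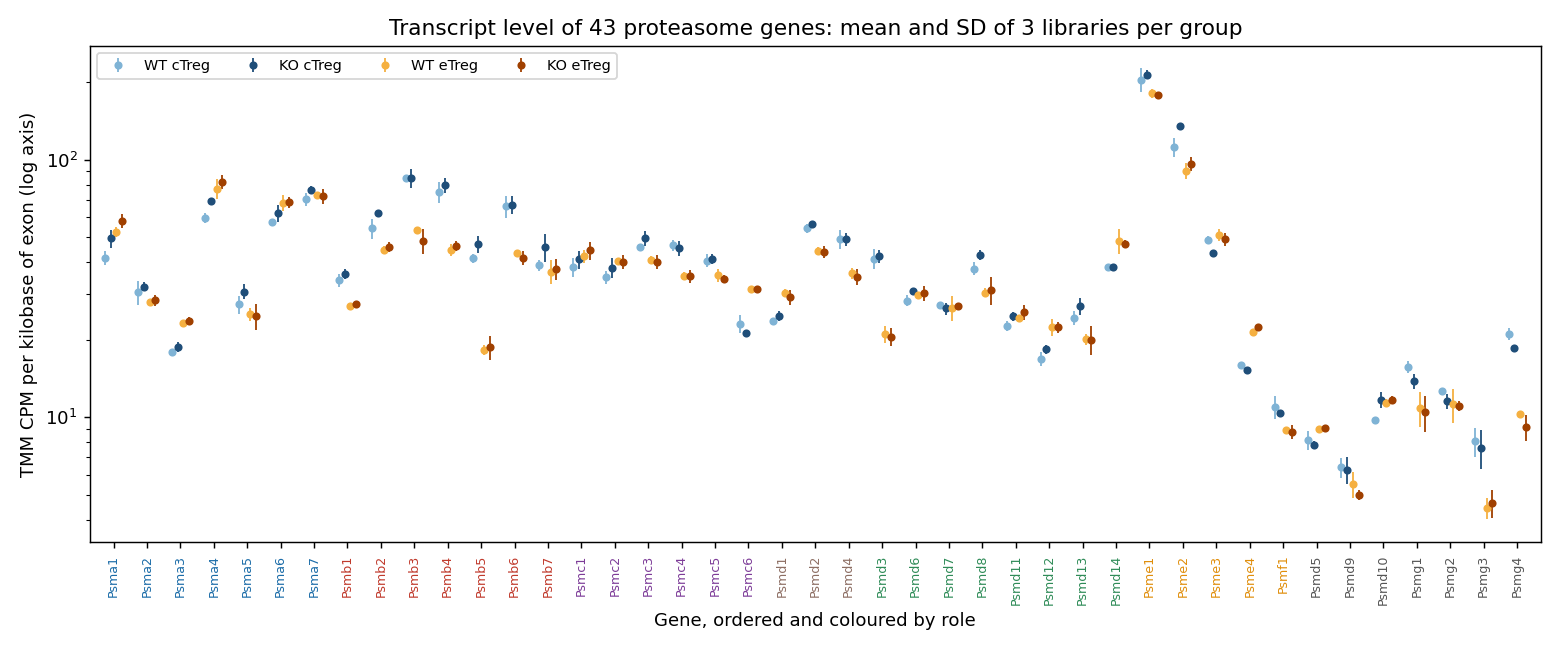
Level of each of the 43 tested proteasome members per kilobase of exon, in TMM-scaled CPM per kilobase on a log axis, as the mean (point) and SD (bar) of the 3 libraries of each of the 4 groups, ordered and coloured by role. The cTreg and eTreg points stand apart for Psmb5, Psmd3 and Psmg4, which lie lower in eTreg, while Psme1 tops the range at a mean of 194 and the chaperones sit at its bottom.

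The first comparison asked what CD25 deletion did to these genes in the central gate. With an adjusted p under 0.05 in edgeR's quasi-likelihood test as the call, Benjamini-Hochberg adjusted over all 12461 genes, 5 members were higher in KO cTreg and 1 was lower. Among all tested genes 14.8% were called higher and 12.6% lower, so the members' count of 6 in 43 (14.0%) lay below the background of 27.5%. The median log2 fold change of the members was 0.07 against 0.0014 for all genes, and 30 of the 43 values were positive. All 3 KO libraries lay above all 3 WT libraries for 12 members and below them for 3, where 20.9% and 19.5% of all genes did so.

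Psme2, which pairs with Psme1 in the interferon-induced cap, stood at 113, 99.0 and 116 CPM in WT cTreg and 128, 135 and 131 CPM in KO cTreg. Every KO library was above every WT library, and the log2 fold change was 0.27 ± 0.07 (SE, n = 3 against 3, edgeR adjusted p = 0.00635). It kept its call in 23 of the 24 alternatives tried. Its partner Psme1 spanned 204 to 251 CPM in WT and 227 to 247 CPM in KO, so its groups overlapped (0.06 ± 0.06, adjusted p = 0.488 by edgeR). Of the 50-base stretches of the longest Psme2 transcript, 59.3% also occur in the near copy Psme2b, whose own values overlapped (129, 116 and 128 CPM against 131, 126 and 131), so reads may have been divided between them.

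Among alpha subunits, Psma1 was at 55, 51.0 and 48.8 CPM in WT cTreg and 64.2, 64.2 and 55.7 CPM in KO cTreg (0.25 ± 0.07, edgeR adjusted p = 0.0157). Psma4 was at 71.6, 70.8 and 65.7 CPM in WT and 81.1, 80.3 and 80.1 CPM in KO (0.22 ± 0.07, edgeR adjusted p = 0.0230). For both, the lowest KO library was above the highest WT library. Psmb2, a structural beta subunit, had 48.2, 41.7 and 49.6 CPM in WT and 54.3, 52.2 and 53.4 CPM in KO (0.20 ± 0.07, edgeR adjusted p = 0.0404). Psmd10, a base chaperone also known as gankyrin, had 14.2, 14.6 and 14.3 CPM in WT and 16.6, 18.6 and 16.5 CPM in KO (0.26 ± 0.09, edgeR adjusted p = 0.0335). Groups did not overlap for either gene, but of 24 alternatives Psmb2 kept its call in 11 and Psmd10 in 13, against 20 for Psma1 and 18 for Psma4. The member that fell was Psme3, the nuclear activator, from 135, 128 and 126 CPM in WT to 120, 114 and 114 CPM in KO (-0.16 ± 0.06, edgeR adjusted p = 0.0421). Its KO libraries all lay below its WT libraries, and it kept its call in 14 of 24 alternatives.

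None of these changes passed a test for more than a 1.2-fold change, and the counts moved with single libraries. The 5 higher calls became 3 without WT cTreg replicate 2, 2 without WT cTreg replicate 3, 1 without KO cTreg replicate 2 and 3 without KO cTreg replicate 3. The single lower call, Psme3, ended without any 1 of the 3 WT cTreg replicates, without KO cTreg replicate 2 or 3 and without WT eTreg replicate 3, although in the last case its own libraries were all kept. In these cases 0 members were called lower, except without WT cTreg replicate 3, where another member was. It was also absent with no filter on low counts, with limma-voom and in the 6-library fit with the replicate block. Fits on the 6 cTreg libraries alone, with or without that block, and DESeq2 each called 3 members higher.

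**Figure D2:**
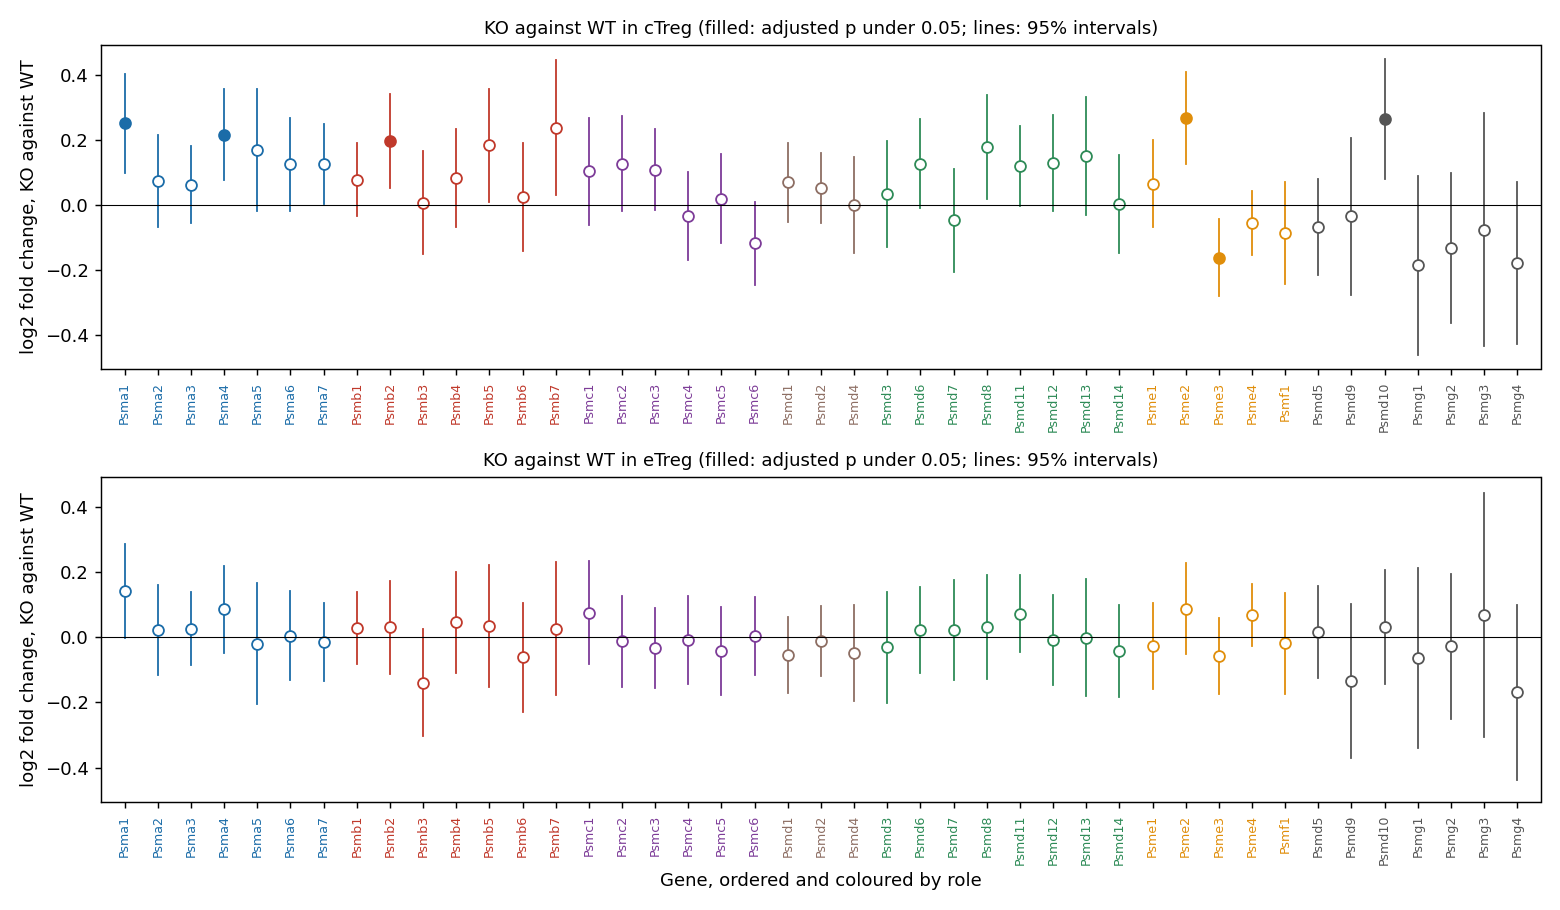
Log2 fold change of KO against WT for the 43 tested members in cTreg and in eTreg, with 95% confidence intervals from edgeR, ordered by role; filled symbols passed the adjusted p of 0.05. In cTreg 5 members are called above 0 and Psme3 below it, and in eTreg no member is called and the point estimates lie between -0.17 and 0.14.

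In the effector gate the same deletion gave no called member: 0 of 43 with edgeR, where 6.65% of all genes were called (3.25% higher and 3.40% lower), and 0 also at an unadjusted p under 0.05, where 19.4% of all genes were. DESeq2 and limma-voom also called 0 members, with 0 at an unadjusted p under 0.05 in each. The edgeR fit of the 6 eTreg libraries with a replicate block called 0 members too, where 14.0% of all genes were called. In that fit 2 members had an unadjusted p under 0.05. The median log2 fold change was -0.0013, 21 values were positive and 22 negative, and the largest in size was -0.17 ± 0.13 for the chaperone Psmg4. The 95% intervals of all members lay between -0.44 and 0.44, and the median standard error was 0.07, and for some members they included changes of the size called in cTreg. For Psme2, WT eTreg had 81.5, 94.3 and 88.8 CPM and KO eTreg 89.9, 100.4 and 91.2 CPM, with overlap (0.09 ± 0.07, edgeR adjusted p = 0.522). Psma1 was at 64.4, 68.5 and 62.5 CPM against 68.3, 77.2 and 70.1 CPM, again with overlap (0.14 ± 0.07, edgeR adjusted p = 0.272).

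The difference between the deletion's effects in the gates was tested as an interaction. No member passed, 0 of 43 against 3.80% of all genes (0.803% higher and 3.00% lower), and 0 had an unadjusted p under 0.05 with edgeR, DESeq2 or limma-voom. The median interaction of the members was -0.06 on the log2 scale, with values from -0.23 to 0.14. The effects of deletion on the members in cTreg and in eTreg were therefore not shown to differ.

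The larger differences lay between the gates. In WT, 11 members were higher in eTreg than in cTreg and 20 were lower, 31 of 43 (72.1%) where 71.5% of all genes were called. The share of members called was thus that of the background, but their directions were unequal: 25.6% of members were higher, against 35.7% of all genes, and 46.5% lower, against 35.8%. In KO, 10 were higher and 24 lower (79.1%), against 72.0% of all genes (36.1% higher and 35.8% lower). The split moved with the scaling: with Rn45s left out of library sizes it was 16 higher and 17 lower in WT and 11 and 23 in KO, and with the offset for length and GC content described below it was 4 and 23 in WT and 1 and 21 in KO. The background moved too: without Rn45s 39.6% of all genes were higher and 32.0% lower in WT, and with the offset 20.7% and 41.8%. For KO these shares were 38.0% and 33.7% without Rn45s, and 22.8% and 34.97% with the offset. Median log2 fold changes were -0.16 in WT and -0.25 in KO, where the medians of all genes were 0.00027 and -0.00014. All 3 eTreg libraries lay above all 3 cTreg libraries for 13 members in WT and 11 in KO (37.4% and 37.5% of all genes), and below them for 19 and 23 (37.6% and 37.1%). The summed level of the members differed less, at 2689 to 3046 CPM over the cTreg libraries and 2587 to 2780 CPM over the eTreg libraries. In bulk samples, fewer cells of a type and less RNA per cell cannot be told apart. The B cell marker sums given above were also higher in eTreg than in cTreg within each genotype.

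The comparisons in WT and in KO contrast different libraries, but 1 fit over all 12 libraries gave both their scaling and their estimate of the spread. Of the members, 8 were called higher in both, 20 lower in both and 0 in opposite directions, 3 were called in WT alone, 6 in KO alone and 6 in neither. Among all tested genes 31.2% were called higher in both, 31.1% lower in both and 0.257% in opposite directions. The sign agreed for 39 of the 43 members, and the fold changes of WT and KO ran together across members (Pearson 0.97, Spearman 0.97). This describes 43 genes that share the libraries of each comparison, with no test. The sign agreement and coefficients over all genes were not determined.

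By role, the alpha and beta rings of the core gave different counts, where 35.7% of all genes were called higher and 35.8% lower in WT. Of the 7 tested alpha subunits 4 were higher and 0 lower in WT eTreg (median 0.25), and 3 were higher and 2 lower in KO eTreg (median 0.13). Of the 7 tested beta subunits 0 were higher and 6 lower in WT (median -0.59), and all 7 were lower in KO (median -0.68). With the offset, alpha subunits were 1 higher and 3 lower in WT and 0 and 3 in KO, and beta subunits 0 and 5 in WT and 0 and 6 in KO. Psmb5, which holds the chymotrypsin-like cutting site, showed the largest fall: 38.8, 35.7 and 37.3 CPM in WT cTreg and 15.8, 16.2 and 17.3 CPM in WT eTreg. In KO it stood at 39.0, 45.2 and 42.5 CPM in cTreg and 14.8, 18.3 and 17.5 CPM in eTreg. No eTreg library exceeded 18.3 CPM and no cTreg library was below 35.7. The log2 fold change was -1.18 ± 0.09 in WT and -1.33 ± 0.09 in KO (edgeR adjusted p = 2.93e-09 and 7.25e-10, n = 3 against 3 in each). Of the 50-base stretches of its longest transcript, 57.1% also stand in other annotated genes, most of them in Gm3375. Reads may therefore be shared with these copies. Other members with such stretches included Psmb3 (55.8%), Psma5 (55.4%), Psma4 (31.5%), Psmb7 (28.1%), Psmd2 (26.4%), Psmg3 (22.7%) and Psma3 (22.0%).

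The other beta subunits fell by less. Psmb6, the caspase-like cutting subunit, changed by -0.59 in WT and -0.68 in KO, Psmb4 by -0.74 and -0.78, and Psmb3 by -0.66 and -0.81. Psmb7, the trypsin-like cutting subunit, gave -0.08 ± 0.10 in WT (edgeR adjusted p = 0.490) and -0.29 ± 0.10 in KO (edgeR adjusted p = 0.0137), where its groups overlapped, and its KO call ended without KO cTreg replicate 2 or KO eTreg replicate 1. Alpha subunits that rose in both genotypes were Psma1, Psma3 and Psma4. Psma3 was at 51.8, 51.5 and 49.7 CPM in WT cTreg and 64.3, 67.4 and 67.0 CPM in WT eTreg, with no overlap (0.38 ± 0.05, edgeR adjusted p = 9.29e-06; 0.34 in KO). Psma4 changed by 0.37 in WT and 0.24 in KO. Psma1 changed by 0.34 and 0.23, and its KO call ended without KO cTreg replicate 3.

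**Figure D3:**
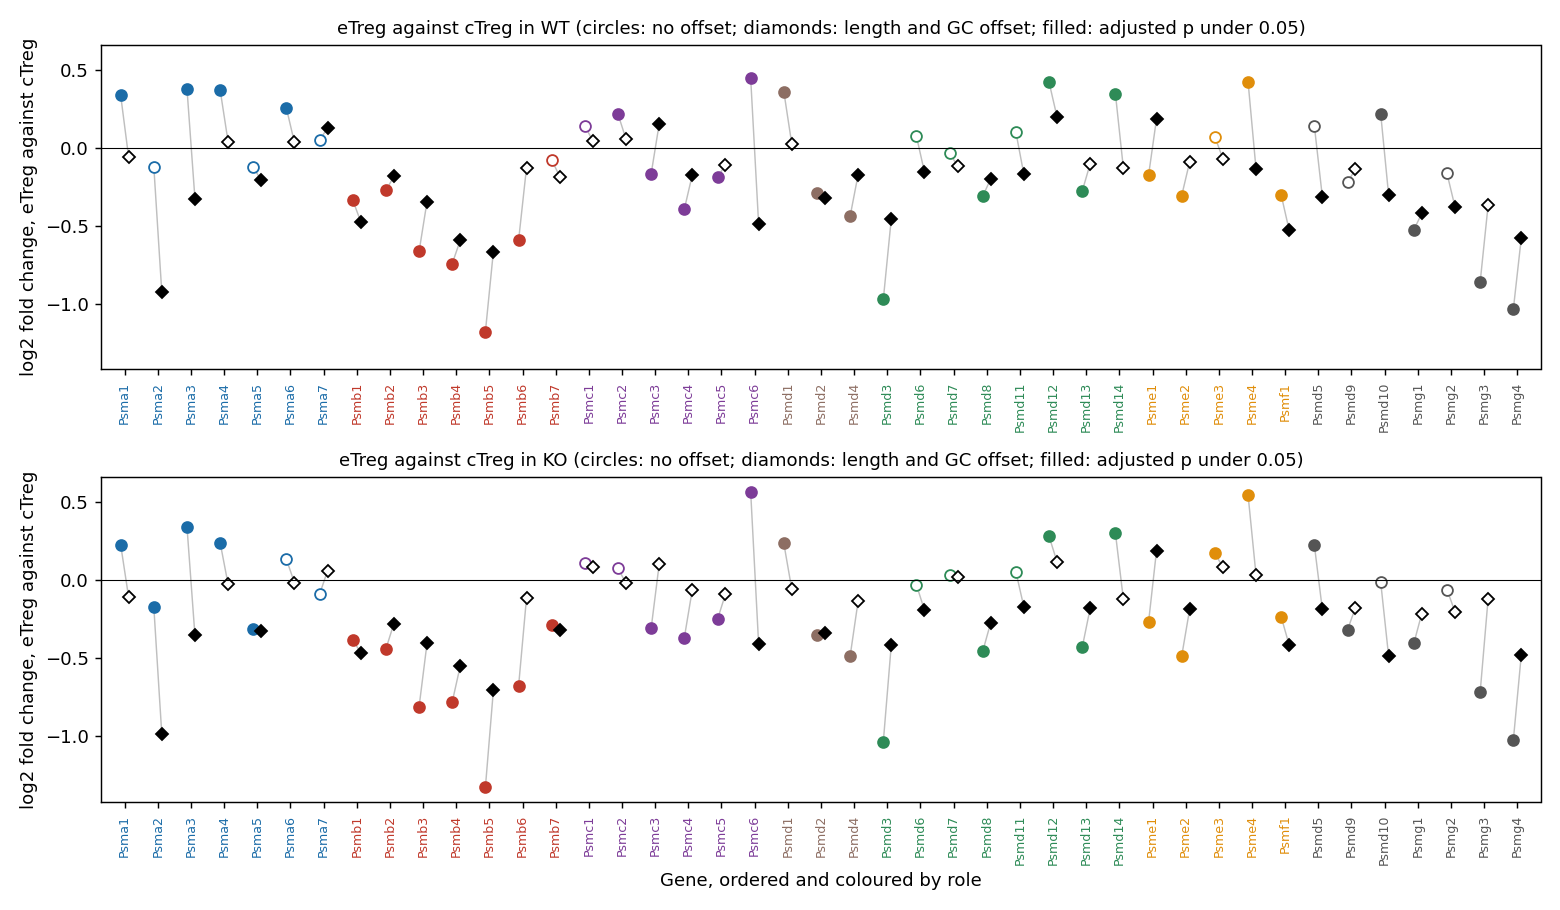
Log2 fold change of eTreg against cTreg for each tested member in WT and in KO, by role, without an offset and with an offset fitted on transcript length and GC content. Circles are values without the offset and diamonds values with it, filled where the adjusted p was under 0.05. Psmb5, Psmd3 and Psmg4 lie lowest without the offset, with Psmb5 at -1.18 in WT, and with the offset the spread over members narrows and Psmc6, at 0.45 without it, moves to -0.49.

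Within the regulatory particle, members of 1 subassembly also differed in direction. Among the 6 ATPases, 2 were higher and 3 lower in WT, and 1 and 3 in KO. Psmc6 rose, from 55.1, 52.5 and 47.0 CPM in WT cTreg to 67.8, 70.7 and 72.0 CPM in WT eTreg (0.45 ± 0.06, edgeR adjusted p = 3.20e-06). In KO its values were 47.9, 47.4 and 47.2 CPM in cTreg and 70.1, 69.5 and 71.4 CPM in eTreg (0.57 ± 0.06, edgeR adjusted p = 1.83e-07), so in both genotypes the eTreg libraries lay above all cTreg libraries. Psmc4 instead changed by -0.39 in WT and -0.37 in KO. Of the 3 other base subunits, Psmd1 was higher (0.36 and 0.24) while the scaffold Psmd2 (-0.29 and -0.35) and the ubiquitin receptor Psmd4 (-0.44 and -0.49) were lower.

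In the lid, 2 of 8 members were higher and 3 lower in each genotype. Psmd3 fell from 93.3, 79.2 and 93.7 CPM in WT cTreg to 47.4, 46.9 and 41.2 CPM in WT eTreg (-0.97 ± 0.08, edgeR adjusted p = 1.07e-08), and by -1.04 ± 0.08 in KO. Its eTreg libraries were at most 47.4 CPM and its cTreg libraries at least 79.2 CPM, KO included. Psmd12 rose by 0.42 in WT and 0.28 in KO, and Psmd14, the deubiquitinase of the lid, by 0.35 and 0.30. Psmd7, the inactive partner of Psmd14, gave -0.04 and 0.03 and was not called (edgeR adjusted p = 0.674 and 0.694).

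The caps divided as well. Psme4, the large single-chain activator, rose from 102, 106 and 103 CPM in WT cTreg to 136, 142 and 138 CPM in WT eTreg (0.42 ± 0.05, edgeR adjusted p = 3.06e-07), and by 0.55 in KO. Its 6 eTreg libraries all lay above its 6 cTreg libraries. Psme2 changed by -0.31 in WT and -0.49 in KO, Psme1 by -0.18 and -0.27, and the inhibitor Psmf1 by -0.30 and -0.23. With the offset Psme1 was instead called higher (0.19 in WT and in KO) and Psme4 was called lower in WT (-0.13). The median of all genes under the offset was -0.15 in WT, so this Psme4 call did not exceed the shift of all genes. The WT call of Psme1 ended without WT cTreg replicate 1 or WT eTreg replicate 1 and in the 6-library fit with the replicate block. Psme3 was called only in KO (0.17), a call that ended without KO eTreg replicate 1, and its difference between genotypes was not called in the interaction.

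Chaperones were mostly lower or not called: 1 of 7 was higher and 3 lower in WT, and 1 and 4 in KO. Psmg4, which with Psmg3 builds the alpha ring, had 11, 12.3 and 11.9 CPM in WT cTreg and 5.63, 5.72 and 5.77 CPM in WT eTreg (-1.04 ± 0.12, edgeR adjusted p = 8.44e-07), and -1.03 in KO. Psmg3 changed by -0.86 ± 0.17 in WT and -0.72 ± 0.17 in KO, from 6.45 to 8.18 CPM in WT cTreg to 3.55 to 4.30 CPM in WT eTreg. Both genes had separate groups in both genotypes. Psmg2 was called in neither genotype (-0.16 and -0.06). Psmd10, the chaperone higher in WT eTreg (0.22, edgeR adjusted p = 0.0308), lost its call without any 1 of the 3 WT cTreg replicates and without WT eTreg replicate 1 or 2. DESeq2 and the fit with no filter did not call it, and with the offset it was called lower in both genotypes (-0.30 in WT and -0.49 in KO).

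Ratios between members of 1 library do not depend on how libraries are scaled, and were chosen after the values had been seen, so they are given with no test. The geometric mean level per kilobase of the 7 alpha subunits, divided by that of the 7 beta subunits, was 0.745, 0.762 and 0.710 in WT cTreg and 0.797, 0.739 and 0.731 in KO cTreg. In eTreg it was 1.22, 1.23 and 1.197 in WT and 1.27, 1.25 and 1.22 in KO. All 6 eTreg libraries were above all 6 cTreg libraries, and the genotypes overlapped within cTreg. The ratio of Psmb5 to Psma1 per kilobase was 0.999 ± 0.050 (SD, n = 3) in WT cTreg, 0.955 ± 0.110 in KO cTreg, 0.349 ± 0.029 in WT eTreg and 0.323 ± 0.023 in KO eTreg. Within the lid, Psmd3 to Psmd12 was 2.46 and 2.29 in WT and KO cTreg and 0.940 and 0.923 in WT and KO eTreg. The ratio of Psme4 to Psme3 was 0.328 and 0.353 in cTreg and 0.419 and 0.458 in eTreg. Exon lengths multiply the alpha to beta ratio of every library by the same factor. They set its position against 1 but cannot change the separation of the gates. With those of the comprehensive set this ratio was 0.813 to 0.913 in cTreg and 1.37 to 1.46 in eTreg.

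**Figure D4:**
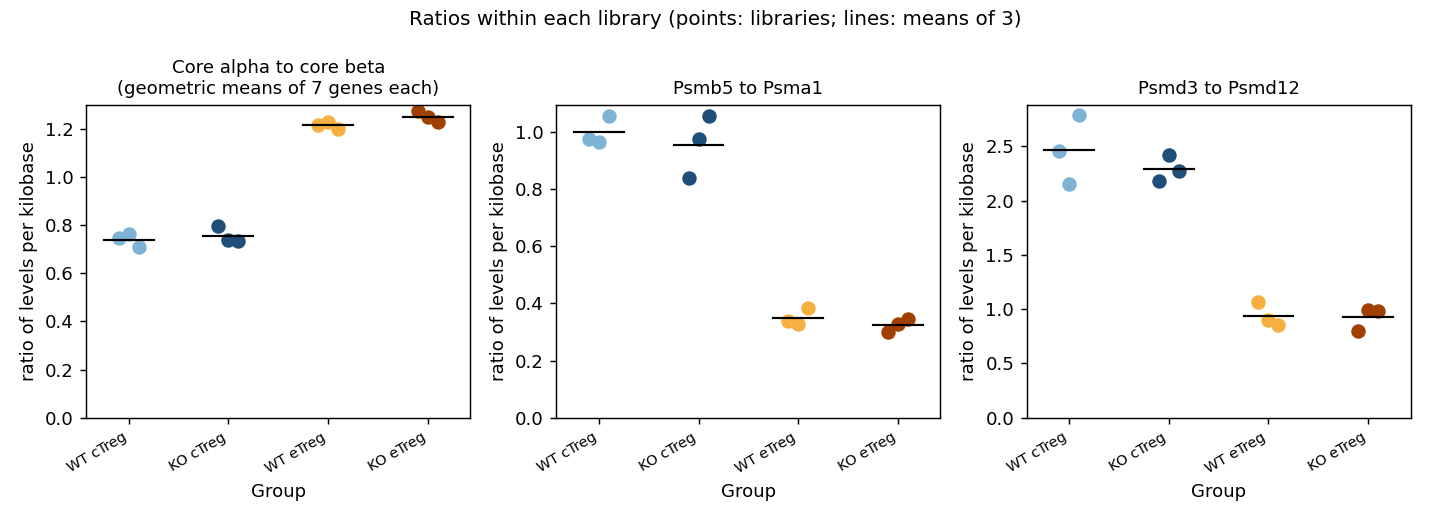
Within-library ratios of proteasome members per kilobase, 1 point per library in each of the 4 groups, with the group mean as a line. The alpha to beta ratio lies between 0.710 and 0.797 in cTreg and between 1.197 and 1.27 in eTreg, and the Psmb5 to Psma1 and Psmd3 to Psmd12 ratios are lower in eTreg.

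Transcript base composition largely separated the members that rose from those that fell. The longest basic transcript of the risers Psmc6, Psma3, Psme4 and Psmd14 held 37.0%, 40.8%, 43.9% and 43.2% G and C, and that of the fallers Psmb5, Psmd3, Psmg3 and Psmg4 held 56.6%, 58.3%, 56.3% and 55.1%. Of the 20 members with at least 50% GC, 0 were higher and 18 lower in WT eTreg, and 0 and 19 in KO. Of the 23 below 50%, 11 were higher and 2 lower in WT, and 10 and 5 in KO. The same division ran through all tested genes: with at least 50% GC, 14.2% were higher and 59.97% lower in WT eTreg, and below 50%, 57.5% were higher and 11.7% lower. Across the 43 members GC content and the log2 fold change of eTreg against cTreg gave a Pearson coefficient of -0.80 and a Spearman coefficient of -0.85 in WT (-0.81 and -0.85 in KO). Across the 12298 tested genes with a known GC content the WT coefficients were -0.41 and -0.57. These describe genes that share libraries and carry no p. For deletion in cTreg the Pearson coefficient over members was -0.06.

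The coding sequences of fallers and risers show the difference. The first 90 coding bases of Psmb5 (chr14:54614119-54618022, minus strand, mm10) and Psmd3 (chr11:98682554-98695979, plus strand), which fell, and of Psmc6 (chr14:45329788-45349705, plus strand) and Psma3 (chr12:70974621-70996347, plus strand), which rose, are printed with G and C in capitals and A and T in lower case. They were picked after the values were seen.
Psmb5: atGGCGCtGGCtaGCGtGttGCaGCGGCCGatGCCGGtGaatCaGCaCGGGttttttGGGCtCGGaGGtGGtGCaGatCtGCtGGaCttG
Psmd3: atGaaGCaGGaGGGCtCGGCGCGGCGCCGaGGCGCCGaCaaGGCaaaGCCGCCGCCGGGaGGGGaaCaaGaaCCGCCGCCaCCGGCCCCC
Psmc6: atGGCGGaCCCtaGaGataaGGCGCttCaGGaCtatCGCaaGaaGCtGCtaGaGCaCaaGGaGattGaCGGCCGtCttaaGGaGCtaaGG
Psma3: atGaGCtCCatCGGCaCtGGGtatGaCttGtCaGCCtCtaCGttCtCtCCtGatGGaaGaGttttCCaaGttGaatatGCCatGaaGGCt
Of these 90 bases, 55 were G or C in Psmb5, 68 in Psmd3, 48 in Psmc6 and 43 in Psma3. Over the whole coding sequence the GC content was 57.7%, 57.3%, 41.8% and 42.2% in the same order.

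By role the median GC content was 45% for alpha and 52.2% for beta subunits, so the rings also differ in composition. Within each library, the correlation over all genes between GC content and the log2 level relative to the mean of the 12 libraries was positive in every cTreg library (0.34 to 0.50) and negative in every eTreg library (-0.50 to -0.39). The gate and this library-wide dependence cannot be told apart from the labels, since all libraries of a gate share its sign. Within bins of GC content the members' medians had the sign of those of all genes and lay below them. The WT median was 0.16 for the 2 members under 40% GC and 0.74 for all genes there, 0.36 and 0.46 from 40% to 45%, 0.07 and 0.13 from 45% to 50%, -0.30 and -0.22 from 50% to 55%, and -0.92 and -0.59 from 55% to 60%. In KO the pairs were 0.20 and 0.83, 0.27 and 0.51, 0.05 and 0.16, -0.42 and -0.22, and -0.87 and -0.62.

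An offset fitted in each library on transcript length and GC content reduced the spread over members. It moved the median of all tested genes to -0.15 in WT and -0.08 in KO, and that of the members to -0.17 and -0.18, so relative to all genes the members' median was near 0 in WT. With the comprehensive set the members' medians were -0.25 and -0.22, against -0.14 and -0.07 for all genes. The standard deviation of fold changes over members fell from 0.42 to 0.24 in WT and from 0.43 to 0.24 in KO, and to 0.31 in both with the comprehensive set. Called members became 4 higher and 23 lower in WT, where 20.7% of all genes were higher and 41.8% lower, and 1 higher and 21 lower in KO, where 22.8% and 34.97% of all genes were. Of the 31 WT calls 14 were kept, 11 lost and 6 turned round, and of the 34 KO calls 15 were kept, 15 lost and 4 turned round. The matching shares of all genes were not determined. Psmc6 turned round, from 0.45 to -0.49 in WT and from 0.57 to -0.41 in KO, and so did Psma3 (-0.33 and -0.35). Psma2, the member that was low in GC (39.4%) without rising (-0.12 and -0.17), went to -0.93 and -0.99. Psme4 was called lower in WT with the offset (-0.13), though not below the median of all genes there, and not called in KO.

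The call, though not the size, was kept in all of these fits for 10 falls. The share of all genes that kept a fall in this way was not determined, so the count is no result about the members as a set. With the offset from the basic set 41.8% of all genes were lower in WT and 34.97% in KO. The members called lower in both genotypes, without the offset and with it from either transcript set, were Psmb1, Psmb2, Psmb3, Psmb4 and Psmb5 of the core, Psmd2, Psmd3 and Psmd8 of the regulatory particle, Psmf1 and Psmg4. Relative to the median of all genes under the offset, Psmb5 was at -0.52 in WT and -0.63 in KO, Psmb4 at -0.45 and -0.47, Psmg4 at -0.43 and -0.40, Psmb1 at -0.33 and -0.39 and Psmd3 at -0.31 and -0.34. Psmb2 and Psmd8 were at -0.04 and -0.05 in WT, so their WT calls there did not exceed the shift of all genes. Psmb6 lost its call with the offset from the basic set (-0.13 and -0.11), and so did Psmg3 (-0.37 and -0.12); with the comprehensive set both were called lower in both genotypes. With the basic set no member was called higher in both genotypes both without and with the offset. With the comprehensive set Psmd12 was (0.24 in WT and 0.18 in KO with the offset).

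**Figure D5:**
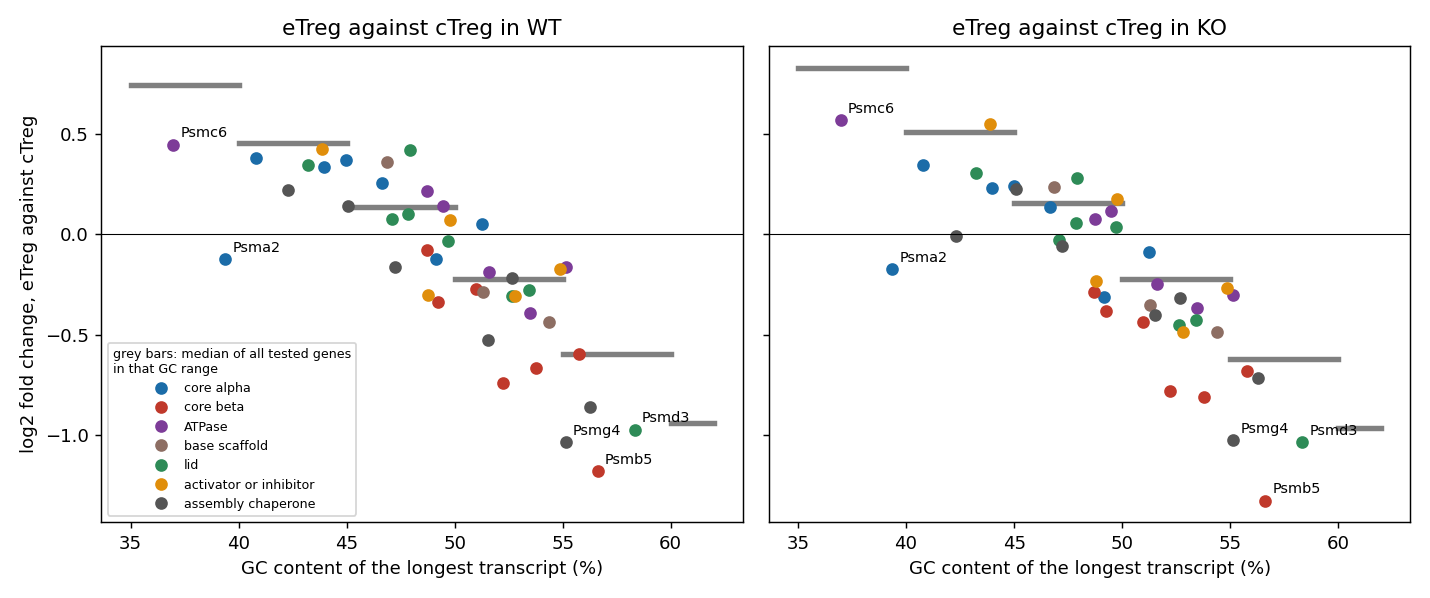
Log2 fold change of eTreg against cTreg plotted against GC content of the transcript for the 43 tested members, in WT and in KO, coloured by role, with all tested genes summarised in bins of GC content. Grey bars are the medians of all genes; no offset is applied. Members below 45% GC lie mostly above 0, with Psma2 as an exception, and those above 55% lie below it, with Psmb5 at -1.18 and 56.6% GC in WT.

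Promoters were compared as well, since subunit genes are known targets of NRF1, which binds antioxidant response elements. RefSeq windows from 250 bases before to 50 bases after the gene start (GRCm38.p6) were matched for 37 of the 45 members, and the table holds 27025 genes. The core of that element, TGACNNNGC on either strand, occurred in 6 of 37 members (16.2%) and in 14.0% of all genes. CCAAT occurred in 13 members (35.1%) and 41.1% of all genes, and GGGCGG, the core of GC boxes, in 22 members (59.5%) and 38.2%. The motifs were chosen after the results were known, and a match is a description of letters. The 80-base windows of 4 holders of TGACNNNGC upstream of the start are shown, because they include 2 beta subunits that fell in eTreg and 2 members that rose. The motif is in capitals, or its reverse complement where it lies on the opposite strand.
Psmb5: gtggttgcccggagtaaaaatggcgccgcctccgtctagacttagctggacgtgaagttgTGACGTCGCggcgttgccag
Psmb6: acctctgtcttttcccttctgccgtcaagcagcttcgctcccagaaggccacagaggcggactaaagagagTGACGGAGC
Psmc6: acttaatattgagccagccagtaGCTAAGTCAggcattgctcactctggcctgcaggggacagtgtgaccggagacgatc
Psmd12: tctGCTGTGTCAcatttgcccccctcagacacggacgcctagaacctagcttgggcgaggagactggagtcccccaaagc
The windows are chr14:54618023-54618102 (minus strand) for Psmb5, chr11:70525277-70525356 (plus strand) for Psmb6, chr14:45329574-45329653 (plus strand) for Psmc6 and chr11:107479278-107479357 (plus strand) for Psmd12. The match begins 47 bases before the start in Psmb5, 9 in Psmb6, 227 in Psmc6 and 247 in Psmd12. Promoter and transcript composition ran opposite ways in these 4 genes: the 250 upstream bases held 68.0% and 66.8% GC in Psmc6 and Psmd12, and 49.6% and 51.6% in Psmb5 and Psmb6. Other members were mixed. The risers Psmd14 and Psme4 held 66.8% and 63.6%, but the risers Psma3 and Psmd1 held 48.0% and 49.6%. The fallers Psmg1 and Psmc4 held 66.0% and 63.6%.

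Genes around the proteasome were described from lists. The 3 immunoproteasome genes were lower in eTreg in both genotypes (Psmb8 -0.86 and -0.88, Psmb9 -0.88 and -1.02, Psmb10 -1.19 and -1.34 in WT and KO), and with deletion in cTreg Psmb9 (0.33) and Psmb10 (0.25) were called higher. The 3 transcripts held 55.3% to 56.5% GC, and between gates the median of all genes from 55% to 60% was -0.59 in WT and -0.62 in KO. The summed level per kilobase of these 3 was divided by that of Psmb5, Psmb6 and Psmb7. It gave 2.24 and 2.32 in WT and KO cTreg and 1.75 and 1.88 in WT and KO eTreg. The single pairs differed in direction. Psmb8 to Psmb5 was 4.42 and 4.11 in WT and KO cTreg and 5.54 and 5.63 in WT and KO eTreg. Psmb9 to Psmb6 was 1.15 and 1.43 in cTreg and 0.94 and 1.13 in eTreg. Psmb10 to Psmb7 was 1.76 and 1.79 in cTreg and 0.82 and 0.86 in eTreg. Of 16 other proteasome-associated genes tested, 7 were higher and 4 lower in WT eTreg, and 8 and 6 in KO. For these lists the shares of all genes given above apply: 35.7% higher and 35.8% lower between gates in WT, 14.8% higher and 12.6% lower on deletion in cTreg, and 6.65% called on deletion in eTreg. Usp14 (0.72 in WT), a deubiquitinase on the base, Zfand5 (0.69 and 0.75), a proteasome activator, and AI314180 (0.56 and 0.76), the scaffold ECM29, were higher. With the offset, however, Usp14 in WT and Zfand5 in both genotypes were below 0, as was the median of all genes. Adrm1, a ubiquitin receptor of the base, was lower (-1.06 and -1.14), as were Shfm1, the smallest lid subunit (-0.42 and -0.76), and Zfand2a (-0.51 and -0.41). Adrm1 held 60.3% GC, and without the offset the median of all genes above 60% was -0.94 in WT and -0.96 in KO. Zfand2a (51.5% GC) lay where that median was -0.22 in both, and Shfm1 (37.3%) where it was 0.74 and 0.83. With deletion in cTreg 3 of the 16 were higher, Pomp (0.23), which matures the core, Akirin2 (0.22), which carries proteasomes into the nucleus, and Zfand5 (0.16), and 2 lower, Hspb11 (-0.53), an intraflagellar transport protein, and Ublcp1 (-0.36), a phosphatase. In eTreg 1 of the 16, Zfand5, was called higher (0.23), and it lost that call without KO eTreg replicate 3.

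Nfe2l1 itself was called in no comparison, at 0.02 and -0.02 between the gates and 0.04 in cTreg and -0.0020 in eTreg on deletion. Of the 11 tested genes of its pathway 3 were higher and 5 lower in eTreg in each genotype. The small Maf partners went in different directions, Mafg higher (0.77 and 0.57) and Mafk (-1.04 in WT) and Maff (-1.68 and -2.16) lower. Keap1, the adaptor that keeps the related factor NRF2 low, was lower (-0.98 and -1.06), as was Syvn1, a ubiquitin ligase of the endoplasmic reticulum (-0.80 and -0.97), while its partner Sel1l (0.34 and 0.26) and Ngly1 (0.23 and 0.44), the deglycosylase that processes NRF1, were higher. With the offset, where the median of all genes was also below 0, Ngly1 was below 0 in both genotypes, and Sel1l in KO. The lower genes Mafk, Maff, Keap1 and Syvn1 held 56.2% to 58.0% GC. Without the offset the median of all genes from 55% to 60% was -0.59 in WT and -0.62 in KO. Deletion in cTreg raised Mafg (0.37), Vcp (0.22), the ATPase that extracts ubiquitinated proteins, and Syvn1 (0.20), 3 of the 11, and lowered 0. In eTreg 1 of the 11, Ngly1, was called higher on deletion (0.25), a call that ended without either of WT eTreg replicates 1 and 3 or KO eTreg replicates 2 and 3.

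Of 19 ubiquitin and shuttle genes, 5 were higher and 10 lower in WT eTreg, and 5 and 9 in KO. The activating enzyme Uba6 rose (1.17 and 1.09), as did the peptidases Tpp2 (0.69 and 0.81) and Npepps (0.38 and 0.40), which trim peptides after the proteasome, although Tpp2 was at -0.011 in WT with the offset. The ubiquitin fusion gene Rps27a (-0.59 in WT) and the polyubiquitin gene Ubb (-0.62 in KO) fell. Deletion in cTreg gave 5 higher and 5 lower, among them Uba6 (0.25), Nploc4 (0.17) and Uba1 (0.17) higher and Lap3 (-0.64) and Rps27a (-0.31) lower.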

How the data were processed

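Per the labels' protocols, a Qiagen RNeasy kit gave total RNA, and KAPA RNA HyperPrep with RiboErase made the libraries. The authors deposited whole-number read counts per gene, not normalized. The submitters' processing notes name HISAT2 2.2.1, Cell Ranger and mm10, with no role; which tool counted the reads, and whether by strand, is not given in the sources used here. Columns were matched to samples by title.

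Counts were tested with edgeR 4.0.16 (R 4.3.3): TMM scaling, filterByExpr, 4 group means over all 12 libraries, a robust quasi-likelihood fit and two-sided F-tests, with Benjamini-Hochberg adjustment over 12461 genes and calls at 0.05. A standard error is the size of the log2 fold change over the square root of F. Contrasts were KO against WT in each gate, eTreg against cTreg in each genotype, and their interaction. The scripts were tested on simulated data. Alternatives were DESeq2 1.42.0 size factors and Wald test, limma 3.58.1 voom, library sizes without Rn45s, no filter, a filter of 1 CPM in 3 libraries, replicate blocks, 6-library fits, a minimum fold of 1.2, each library left out, and an offset from splines (4 degrees of freedom) of length and GC content. Lengths and GC content came from GENCODE for mm10 and promoters from RefSeq. The comprehensive transcript set was used first, and the basic set replaced it after results with the first had been seen; the comprehensive offset is an alternative added after the data were seen.

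The members and lists were chosen with earlier results of these data known. Named were, in each contrast, the 5 called members with the largest rise and the 5 with the largest fall, the highest and lowest member per kilobase in each role, untested members, and up to 3 called genes per direction of each related list; others were named after their values were seen, and some genes this rule picks are not reported here. Total counts were 14567313 to 19121577 per library, so a level of 3 counts is 0.138 to 0.241 CPM; depth limits counting error only. Replicates of a group differed by more than sampling noise (chi-squared per degree of freedom 3.62 to 10.2). Nothing in the labels says that equal replicate numbers mark a shared day. Deviations of same-numbered libraries correlated above 0.1 in all 3 pairs for KO and WT eTreg (0.257, 0.341 and 0.166) but not in the other comparisons. A block was therefore used for eTreg beside the unblocked fit, where it changed no member call. In the 6 eTreg libraries it raised the share of all genes called from 6.32% to 14.0%.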

Additional observations from a re-analysis of the deposited data

Results flagged for a closer look

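One gene of the related lists, Ublcp1, a phosphatase that acts on the proteasome, differed between the gates in its response to CD25 deletion by the test of the difference itself. The interaction was 0.63 ± 0.14 on the log2 scale (edgeR adjusted p = 0.0160). Its levels were 18.8, 15.9 and 13.9 CPM in WT cTreg and 13.3, 12.5 and 11.9 CPM in KO cTreg, a change of -0.36 ± 0.10 (edgeR adjusted p = 0.0159). In eTreg they were 17.7, 17.6 and 18.6 CPM in WT and 21.0, 21.6 and 22.4 CPM in KO, a change of 0.27 ± 0.10 that was not called (edgeR adjusted p = 0.113). The libraries did not overlap between genotypes in either gate. The interaction lost its call without KO cTreg replicate 3 or KO eTreg replicate 3 and against a minimum fold of 1.2, and kept it with the length and GC offset. Ublcp1 was 1 of 16 tested proteasome-associated genes. Of the 3 immunoproteasome, 11 NRF1 pathway and 19 ubiquitin and shuttle genes 0 were called for the interaction, where 3.80% of all genes were.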

How the results depend on the processing

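With 3 libraries a group, each a pool of mice, p-values measure the spread between these pools. Psmg3, the tested member with the lowest counts, had the largest standard errors (0.17 to 0.18 between groups and 0.24 in the interaction). The cTreg deletion calls were the least stable. Members called higher became 3 with DESeq2's Wald test, with the 6 cTreg libraries alone and with these in a replicate block, 2 with the offset from either transcript set and 0 for a minimum fold of 1.2, and ranged from 1 to 6 with 1 library left out. Members called lower became 0 with limma-voom, with no filter, in the 6-library replicate block and for the minimum fold, 2 with either offset, and ranged from 0 to 1 with 1 library left out. The causes were not tested. For eTreg deletion and for the interaction all alternatives called 0 members. The replicate block over 12 libraries called 5 higher and 1 lower for deletion in cTreg, 0 in eTreg, 11 and 20 between gates in WT and 10 and 24 in KO, and in the 6-library fits 10 and 19 in WT and 11 and 24 in KO.

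Between gates in WT, the members called higher became 4 with either offset and 6 for the minimum fold, those called lower became 10 for the minimum fold, and the median became -0.089 with Rn45s left out of library sizes and -0.25 with the comprehensive offset. In KO, those called higher became 1 with the basic and 4 with the comprehensive offset and 3 for the minimum fold, and those called lower became 15 for the minimum fold. With 1 library left out, the counts ranged from 10 to 11 higher and 19 to 22 lower in WT (median -0.19 to -0.10) and from 9 to 10 and 21 to 24 in KO. The median for deletion in cTreg ranged from 0.02 to 0.11.

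Every reversal came under the length and GC offset, whose construction removes a dependence that all tested genes shared. Reversals are counted from 0, while with the basic set the median of all genes was -0.15 in WT and -0.08 in KO. Relative to that median, Psma1 (0.09), Psmd14 (0.02) and Psme4 (0.01) in WT and Psma4 (0.05) and Psmd1 (0.02) in KO lay above it. The other members listed below 0 with the basic set lay below it. Of the related genes below 0 with that set, only Ngly1 lay below the median. In WT, with the basic and then the comprehensive transcript set, values became Ngly1 -0.37 and -0.37, Psma1 -0.060 and -0.052, Psma3 -0.33 and -0.25, Psmc3 0.15 and 0.16, Psmc6 -0.49 and -0.37, Psmd10 -0.30 and -0.28, Psmd14 -0.13 and -0.11, Psme1 0.19 and 0.23, Psme4 -0.13 and -0.11, Tpp2 -0.011 and -0.24, Usp14 -0.11 and -0.030, Zfand5 -0.14 and -0.091 and Psmc2 -0.40 (comprehensive). In KO they became Ngly1 -0.13 and -0.14, Psma1 -0.11 and -0.091, Psma3 -0.35 and -0.27, Psma4 -0.025 and -0.010, Psmc3 0.10 and 0.12, Psmc6 -0.41 and -0.28, Psmd14 -0.12 and -0.088, Psmd5 -0.19 and -0.15, Psme1 0.19 and 0.24, Zfand5 -0.076 and -0.028, Psmd1 -0.057 (basic), Sel1l -0.014 (basic) and Tpp2 -0.18 (comprehensive).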
